A study of Mus musculus with 7 samples.

Results

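Of 10752 regions of mouse gastrocnemius muscle at which both RNA polymerase II (RNAP2) libraries had a peak, 606 lay at divergent promoters, which is 5.64% of these regions. A region counted as a divergent promoter when its midpoint was within 1000 bp of the transcription start sites (TSSs) of 2 different protein-coding genes that lie on opposite strands and are transcribed away from each other. The 606 regions covered 599 gene pairs and 1197 genes. They were compared with 5213 regions near the TSSs of a single protein-coding gene. A further 139 regions lay near several genes with no divergent pair, and 4794 had no protein-coding TSS within the limit. All libraries came from gastrocnemius muscle of wild-type male C57BL/6J mice aged 5 months, kept in 12 h light and 12 h dark on standard chow. No group was treated or carried a transgene. RNAP2 was immunoprecipitated at Zeitgeber Time (ZT) 4, 4 h after lights on, with clone 8WG16. The core clock activator BMAL1 was mapped at ZT4 and the clock repressor REV-ERBα at ZT8, with 2 replicate libraries per factor. The methods call the replicates biological, but the labels do not say how many animals stand behind a library. Gastrocnemius muscle holds fibres together with vessel, nerve and connective tissue cells, and a peak can come from any of them.

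A divergent, or bidirectional, promoter is a short stretch of DNA from which neighbouring genes are read outward in opposite directions. Such promoters are common in mammalian genomes, mostly lie in CpG islands, usually lack a TATA box, and are well known at housekeeping genes for DNA repair, mitochondria and RNA processing. RNAP2 that has begun transcription often pauses a short way past the TSS, and antibody 8WG16 recognises the tail of the polymerase largely in its unphosphorylated form, so signal at promoters is strong relative to gene bodies.

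The distance between the paired TSSs was short. It ranged from 1 to 1521 bp with a median of 134 bp, the quartiles were 71 and 282 bp, and 463 members (76.4%) had TSSs less than 300 bp apart. The whole stretch between paired TSSs is shown for 4 members with strong REV-ERBα peaks and for 1 member with a gene of the respiratory chain. These stretches were chosen because no annotated exon reaches into them. They are given 5′ to 3′ on the plus strand of mm10 (GRCm38), so the gene named first starts just left of the sequence and is read to the left, and the gene named second starts just right of it. Capitals mark the E-box CACGTG, the GC box GGGCGGG and the ETS sequence CCGGAAG on either strand.
Myl12a/Myom1, chr17:71002555-71002632: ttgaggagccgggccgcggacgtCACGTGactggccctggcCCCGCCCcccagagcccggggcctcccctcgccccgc
Uros/Bccip, chr7:133709282-133709332: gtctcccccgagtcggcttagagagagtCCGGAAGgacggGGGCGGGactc
Polr2l/Tspan4, chr7:141475133-141475239: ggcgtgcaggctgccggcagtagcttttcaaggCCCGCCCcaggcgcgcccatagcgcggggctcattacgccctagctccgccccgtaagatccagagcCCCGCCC
Psma7/Ss18l1, chr2:180042434-180042508: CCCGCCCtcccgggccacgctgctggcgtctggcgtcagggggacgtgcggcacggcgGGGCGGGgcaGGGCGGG
Sdhd/Timm8b, chr9:50603813-50603909: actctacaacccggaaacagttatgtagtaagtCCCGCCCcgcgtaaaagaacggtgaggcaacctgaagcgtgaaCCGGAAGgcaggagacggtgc

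The RNAP2 lists differed in length and strength. Replicate 1 held 87870 peaks, of which 10997 had a q-value of at most 0.05, and replicate 2 held 168821 peaks, of which 3622 did. The BMAL1 lists held 34737 and 177669 peaks with only 92 and 36 at that q-value, and the REV-ERBα lists held 28881 and 29934 peaks with 324 and 423. Strength is given as the −log10 p of the strongest peak at a region, which the authors' peak caller computed against input DNA. The number of reads behind a peak is unknown, so no counting interval can be given. The markers of muscle fibres, Ckm, Acta1, Myh4, Tnnt3, Mylpf and Atp2a1, all had RNAP2 peaks at their TSSs in both lists, with −log10 p from 36.6 to 131.1 in replicate 1 and from 10.3 to 39.9 in replicate 2. Of 17 markers of endothelium, blood, connective tissue, fat, nerve sheath and satellite cells, 4 had a peak in both lists, among them Csf1r, Dcn and Col1a1, and 8 had none in either.

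An RNAP2 peak lay near the TSS more often for genes of divergent pairs than for genes that stand alone. The window of a divergent gene also holds the TSS of its partner, so 1 peak can count for both genes and may belong to either, and this alone raises the share of the divergent genes. Of 2158 genes that the annotation places in a divergent pair with TSSs at most 1000 bp apart, 81.4% had a peak of RNAP2 replicate 1 within 1000 bp of the TSS, against 38.9% of 19134 genes with no other protein-coding TSS that near. In replicate 2 the shares were 63.5% and 35.6%. A region present in both replicates lay there for 1239 of the divergent genes (57.4%) and 4763 of the lone genes (24.9%). The difference had the same direction in both libraries, and the exact 2-sided sign-flip permutation test gave p = 0.5, the smallest value that 2 libraries allow. When only lone genes with a CpG-rich promoter (observed over expected CpG of at least 0.6) were used, the difference shrank to 17.2 percentage points in replicate 1 and 10.5 in replicate 2. Occupancy showed no steady trend with the distance between the TSSs. It was read over the stretch between the TSSs and 300 bp beyond each, a window that widens with that distance. A region in both replicates lay in that window for 59.4% of 394 pairs at most 100 bp apart. The share was 53.3% of 435 pairs over 100 and up to 300 bp apart, and 56.7% of 268 pairs still farther apart.

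RNAP2 peaks at divergent promoters were also found again more often in the other library. Of 678 peaks of replicate 2 at divergent promoters, 89.5% overlapped a peak of replicate 1, against 60.2% of 8720 peaks at single-gene promoters. In the other direction the shares were 64.5% of 1006 peaks and 56.3% of 10038 peaks. The median −log10 p of all listed peaks was also higher at divergent promoters, at 6.33 against 5.00 in replicate 1 and 4.44 against 3.26 in replicate 2. For these shares the classes were not matched for peak strength or CpG.

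**Figure D1:**
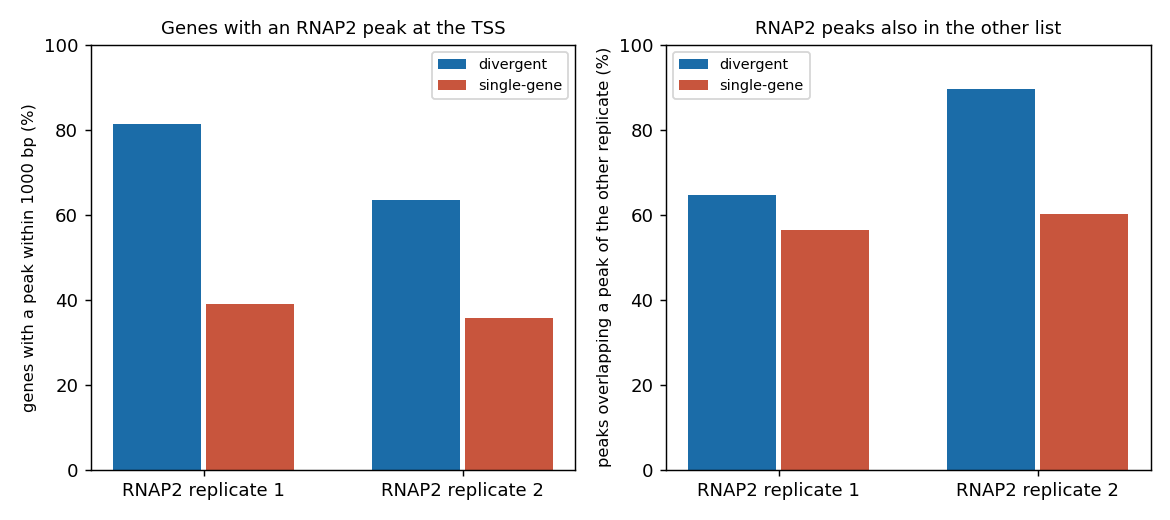
The left panel plots the percentage of genes with an RNAP2 peak within 1000 bp of the TSS, and the right panel the percentage of RNAP2 peaks that overlap a peak of the other replicate. Bars stand for divergent (blue) and single-gene (red) promoters in each RNAP2 library, and the divergent bar is the taller in all 4 pairs, with 81.4% against 38.9% for genes in replicate 1.

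Among regions found in both libraries, however, divergent promoters were no stronger than single-gene promoters. The median −log10 p was 8.46 at both kinds in replicate 1, and 4.73 against 4.93 in replicate 2. The quartiles of the members were 5.52 and 12.9 in replicate 1 and 3.18 and 7.48 in replicate 2, and those of single-gene promoters were 5.07 and 13.3, and 3.26 and 8.12. Median fold enrichment was 5.13 against 5.09 in replicate 1 and 3.58 at both kinds in replicate 2 (exact 2-sided sign-flip permutation p = 1 for both measures). A q-value of at most 0.05 in both lists was reached by 280 members (46.2%), against 48.1% of single-gene promoters and 29.3% of all RNAP2 regions. Taken from a single list, with no second peak required, the median −log10 p was instead higher at divergent promoters, by 1.18 when replicate 1 was left out and by 1.33 when replicate 2 was left out.

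Regions at divergent promoters were slightly wider, with a median of 690 bp against 660 bp. The strongest single peak had a median width of 543.5 against 510.0 bp in replicate 1 and 538.5 against 528 bp in replicate 2, in the same direction in both libraries (exact 2-sided sign-flip permutation p = 0.5). The width grew with the distance between the TSSs, from a median of 641 bp at 1 to 100 bp through 716 bp to 758 bp beyond 300 bp, while the median −log10 p in replicate 1 stayed between 8.37 and 8.49. In replicate 2 it was 4.53, 5.51 and 4.36.

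Promoters with an upstream noncoding transcript were read too. At 558 of the single-gene regions, a transcript of another gene outside the protein-coding set starts upstream on the opposite strand. Such transcripts are called noncoding here, and they can belong to neighbouring protein-coding genes. At these 558 regions the median −log10 p was 9.34 and 5.54, above the medians of the members in both libraries. The strengths of the libraries were related within each class, with Spearman's rho of 0.556 over the 606 members and 0.618 over the 5213 single-gene regions, as a description across regions that share the same libraries.

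**Figure D2:**
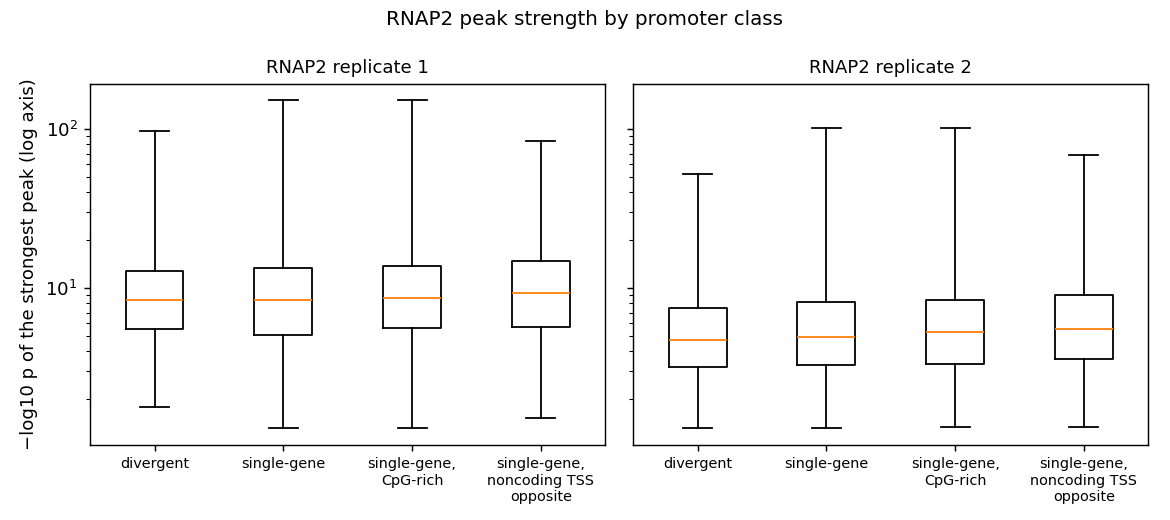
Boxes give the quartiles and the median (orange line) of the −log10 p of the strongest RNAP2 peak on a log axis, and whiskers reach the lowest and highest region, for 606 divergent, 5213 single-gene, 4483 CpG-rich single-gene and 558 single-gene regions with an opposite noncoding TSS. The boxes of the 4 classes overlap almost wholly in each library, and all classes are lower in replicate 2.

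Most RNAP2 summits lay outside the stretch between the chosen TSSs. Every such summit counted as inside a gene, and the median stretch was only 134 bp, so these shares depend on that distance. At single-gene promoters, 56.3% and 59.9% of summits lay downstream of the TSS. In replicate 1 the summit was past the TSS of the minus-strand gene at 251 members, past that of the plus-strand gene at 226, and between them at 129 (21.3%). In replicate 2 the numbers were 242, 254 and 110 (18.2%). Where the summit lay in a gene, its median distance past the TSS was 75 bp in each library, close to the 77 and 74.5 bp of summits downstream of single-gene TSSs. The share between the TSSs rose with their distance, from 12.4% and 8.15% at 1 to 100 bp to 21.2% and 15.2% up to 300 bp and 35.9% and 39.4% beyond.

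Over all pairs the strands were near equal, but where the summit lay in a gene in both libraries, it was mostly the same gene. Over all 606 members, the place was the same in both libraries at 394 (65.0%), 58 of them between the TSSs. The summit was inside a gene in both libraries at 425 members, and it was the same gene at 336 of them (79.1%), the minus-strand gene at 173 and the plus-strand gene at 163. The summits of the libraries were a median of 73.5 bp apart, against 67 bp at single-gene promoters, so an assignment to a partner is uncertain where the TSSs are closer than that. Many genes also have several TSSs. At 452 members (74.6%) every annotated TSS of the pair within the limit kept the divergent order, and at the other 154 another TSS of a partner overlapped the opposite gene. With the 452 members alone, summits lay between the TSSs at 23.0% and 19.9%, and the median −log10 p was 8.64 and 4.73.

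**Figure D3:**
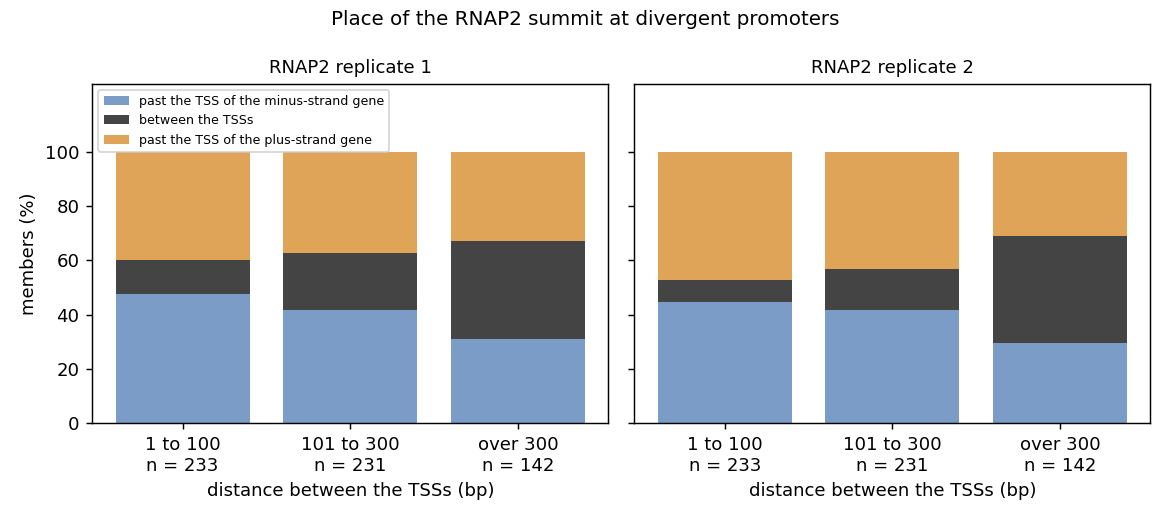
Stacked bars give the percentage of members whose RNAP2 summit lay past the TSS of the minus-strand gene (blue), between the TSSs (dark grey) or past the TSS of the plus-strand gene (orange), by the distance between the TSSs and in each RNAP2 library. The dark part grows from 12.4% and 8.15% at the shortest distances to 35.9% and 39.4% at the longest, and the blue and orange parts are of similar size.

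The strongest members were ranked by the weaker of their RNAP2 peaks. Srsf7/Ttc39d (chr17:80206998-80207573) had the highest value in replicate 1, 96.6, with 41.2 in replicate 2, and both summits lay inside Srsf7, a splicing factor, 26 and 34 bp past its TSS. Ddx5/Cep95 had 63.9 and 38.3, with summits 2 and 57 bp inside Ddx5, an RNA helicase. Mphosph9/2810006K23Rik had 75.2 and 27.9.

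Further down, Gart/Son had 32.7 and 27.9 and summits between the TSSs, which are 927 bp apart. Gart acts in purine synthesis and Son in splicing. Hmgb1/Uspl1, with a chromatin protein, had 28.3 and 26.9. Hnrnpa2b1/Cbx3, an RNA-binding protein beside a heterochromatin protein, had 45.3 and 26.5, and its summits lay 16 and 7 bp inside Hnrnpa2b1. Tatdn1/Ndufb9 had 24.7 in each library although its TSSs are only 26 bp apart, and its summit fell on the side of Ndufb9, a subunit of respiratory complex I, in replicate 1 and on the side of Tatdn1 in replicate 2. Teddm2/Glul, with glutamine synthetase, had 67.0 and 22.6, and Hnrnpk/Rmi1 had 23.5 and 21.9. Other TSSs of the pair also overlap at Hmgb1/Uspl1, Teddm2/Glul and Hnrnpk/Rmi1. The same holds for Uros/Bccip, Myl12a/Myom1, Ndufs6/Mrpl36, Arfrp1/Zgpat and Dcun1d3/Lyrm1. For leading members of the gene lists this order is not given in every case.

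REV-ERBα peaks were about as frequent at divergent promoters as elsewhere, but several were among the strong ones. REV-ERBα represses transcription from sites in promoters and enhancers, either through its own DNA sequence or through other bound factors. A peak overlapped 45 members (7.43%) in replicate 1 and 49 (8.09%) in replicate 2, against 8.40% and 9.94% of single-gene promoters (exact 2-sided sign-flip permutation p = 0.5). Both lists had a peak at 28 members (4.62%), where the background was 4.68% of single-gene promoters and 4.06% of all RNAP2 regions. The difference of the shares turned to between 0.737 and 0.837 percentage points higher at divergent promoters when the RNAP2 regions came from a single list. Among regions with a peak in both lists, the median REV-ERBα −log10 p of the 28 members was 14.8 and 15.5, against 5.01 and 5.22 for the 244 single-gene promoters. A value of at least 10 in both lists, a limit set after these values were seen, was reached by 16 members (2.64%) and 65 single-gene promoters (1.25%). RNAP2 itself was not much stronger at the 28 members, with medians of 8.66 and 5.52.

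The 8 members with the strongest REV-ERBα peaks had RNAP2 values from 5.52 to 11.2 in replicate 1 and from 1.93 to 7.37 in replicate 2. Atg12/Ap3s1, an autophagy conjugation factor beside an adaptor subunit for vesicle sorting, had REV-ERBα values of 54.7 and 81.4 and RNAP2 values of 8.46 and 4.71. Cmc2/Cenpn (chr8:116921169-116921604), a factor for cytochrome c oxidase beside a centromere protein, had 59.5 and 51.9, with RNAP2 at 6.03 and 2.15. Polr2l/Tspan4 (chr7:141474866-141475653), with a subunit of the RNA polymerases, had 42.9 and 50.01. Eef1d/Tigd5, with a translation elongation factor, had 46.9 and 32.6, with RNAP2 at 6.98 and 1.93.

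Myl12a/Myom1 (chr17:71001856-71003103) was the only member with a gene of the sarcomere list. That is 1 of its 27 genes with an RNAP2 promoter region (3.70%), against 19.4% of all such genes. In the annotation, 3 of 46 sarcomere genes (6.52%) were in a divergent pair with TSSs at most 1000 bp apart, against 9.86% of all protein-coding genes. Myom1 encodes myomesin, which links thick filaments at the M line, and Myl12a a myosin regulatory light chain. REV-ERBα reached 32.6 and 40.2 there and RNAP2 5.52 and 7.37. The RNAP2 summits lay 93 and 86 bp inside Myom1, whereas the REV-ERBα summits lay on the Myl12a side, and the E-box printed above is between them. Another TSS of this pair overlaps the opposite gene, so these sides hold for the chosen TSSs. Bzw2/Ankmy2 had REV-ERBα values of 37.5 and 29.1, Uros/Bccip, with an enzyme of heme synthesis, 26.7 and 31.5, and Tst/Mpst, a pair of sulfurtransferases, 21.8 and 26.8. In replicate 2, RNAP2 at Cmc2/Cenpn, Eef1d/Tigd5 and Tst/Mpst (3.02) lay below the lower quartile of all members, 3.18.

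REV-ERBα summits lay between the TSSs at 14 of the 28 members in replicate 1 and 16 in replicate 2, and in both libraries at 14. RNAP2 summits lay there at 5 of the same 28 members in each RNAP2 library, and this difference between the factors was not tested. The median distance between the TSSs of the 28 members was 287 bp, against 134 bp for all members.

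**Figure D4:**
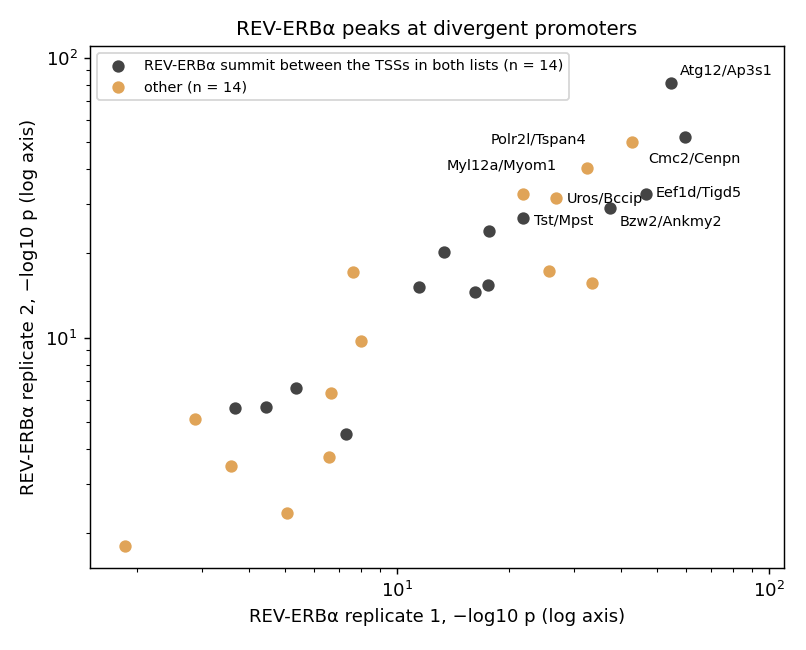
Each point is 1 of the 28 divergent promoters with a REV-ERBα peak in both lists, with the −log10 p in replicate 1 and replicate 2 on log axes, and the 8 highest are named. Dark points had the REV-ERBα summit between the TSSs in both libraries (14 members), and dark and orange points both run from values under 6 to values over 40.

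BMAL1 peaks were few at divergent promoters. Those found were weak, but the whole BMAL1 lists were weak too, with a median −log10 p of 2.48 and 1.87. Their strength was not compared with that at single-gene promoters. A peak overlapped 10 members (1.65%) in replicate 1 and 20 (3.30%) in replicate 2, against 3.66% and 4.85% of single-gene promoters, lower in both libraries (exact 2-sided sign-flip permutation p = 0.5). No member had a BMAL1 peak in both lists, and a count of 0 of 606 allows a share of up to 0.495% (3 counts), a limit that covers counting over regions in these lists and not the spread between libraries. Both lists had a peak at 41 single-gene promoters (0.786%), 8 of them at genes of the clock list, and at 0.995% of all RNAP2 regions. Among CpG-rich single-gene promoters it was 26 of 4483 (0.580%). The highest BMAL1 −log10 p at a member was 3.19 in replicate 1 and 4.25 in replicate 2, the latter at Tatdn1/Ndufb9. None of the 26 genes of the clock list was in a member, and none is annotated in a divergent pair with TSSs at most 1000 bp apart. An RNAP2 region lay at a single-gene promoter for 16 of them.

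The share of genes at divergent promoters differed widely among gene lists. Among all 6186 genes with an RNAP2 region at a divergent or single-gene promoter, 19.4% were at a divergent one, and the lists were read against that share with no test. Mitochondrial import proteins and chaperonins were at 9 of 22 genes (40.9%), mitochondrial ribosomal proteins at 17 of 46 (37.0%), and respiratory chain and ATP synthase genes at 22 of 69 (31.9%). DNA repair and replication genes were at 12 of 31 (38.7%), splicing factors at 17 of 49 (34.7%) and heat shock and DNAJ chaperones at 13 of 42 (31.0%). Aminoacyl-tRNA synthetases (5 of 25), the proteasome (5 of 26) and histones (5 of 24) were near the share of all genes. Cytosolic ribosomal proteins, at 12 of 77 (15.6%), were near it too. No glycolysis gene (0 of 15) and no clock gene (0 of 16) was at a divergent promoter. The arrangement itself is fixed in the genome. In the annotation without regard to RNAP2, 9.86% of all protein-coding genes were in a divergent pair with TSSs at most 1000 bp apart. The share was 33.3% for mitochondrial ribosomal proteins, 32.6% for the respiratory chain and ATP synthase and 28.1% for mitochondrial import and chaperonins. It was 36.6% for DNA repair, 35.4% for splicing factors and 23.2% for heat shock and DNAJ chaperones. Histones had 34.2%, cytosolic ribosomal proteins 15.7% and the sarcomere list 6.52%. The lists with high shares at RNAP2 regions thus had high shares in the annotation too, and an effect of RNAP2 on them was not tested. No glycolysis or clock gene was in such an annotated pair, so the counts of 0 for these lists give no result about RNAP2. Annotated pairs with TSSs farther apart, which the rule for members also allows, were not counted.

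**Figure D5:**
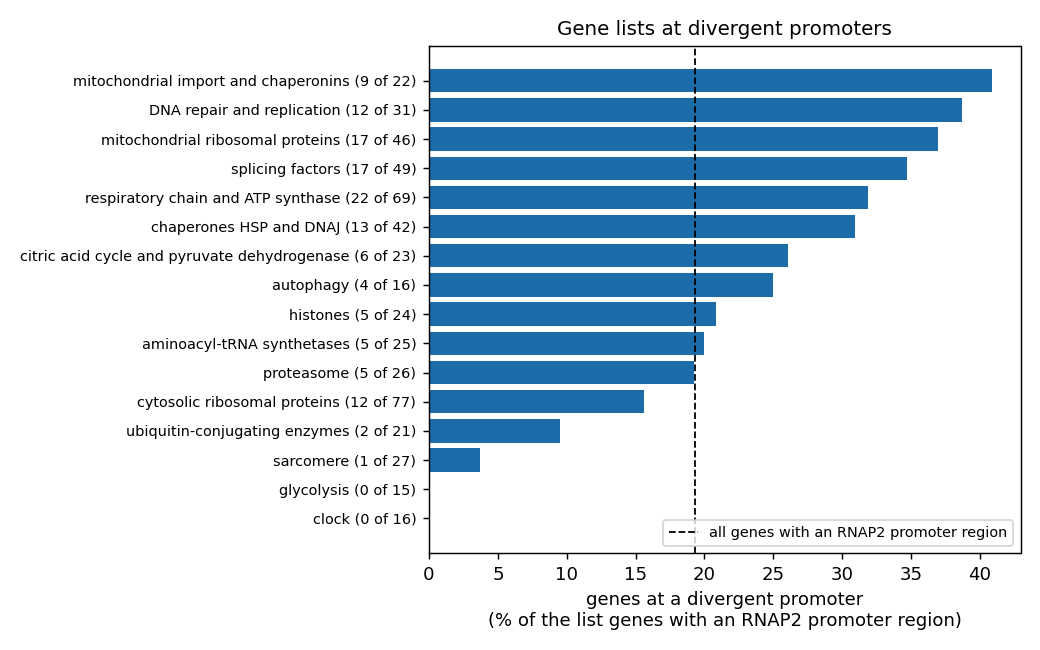
Bars give, for each gene list with at least 15 genes that have an RNAP2 promoter region, the percentage of those genes at a divergent promoter, with the counts beside the name, and the dashed line marks the 19.4% of all such genes. Mitochondrial, DNA repair, splicing and chaperone lists lie to the right of the line. The sarcomere list lies at 3.70% and the glycolysis and clock lists at 0, and these lists also had low shares in the annotation.

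Respiratory chain genes were spread over all complexes, and no member paired genes of this list with each other. Their 22 regions had a median −log10 p of 11.7 and 5.29, against 12.6 and 5.96 at 49 single-gene promoters of the same list. After Tatdn1/Ndufb9, the strongest were Haus1/Atp5a1 with 23.7 and 21.4 and Atp5c1/Kin with 22.6 and 20.3, which hold the alpha and gamma subunits of ATP synthase. Emc8/Cox4i1, with a subunit of cytochrome c oxidase, had 12.1 and 20.7. Of succinate dehydrogenase, Sdha/Ccdc127 had 8.91 and 9.32 and Sdhd/Timm8b 10.3 and 4.93, the latter beside a mitochondrial import chaperone. The list also holds the assembly factor gene Ndufaf2.

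In pairs that joined mitochondrial functions, Ndufs6/Mrpl36 joins complex I and the mitochondrial ribosome and had 17.03 and 10.98, Hspd1/Hspe1 encodes the mitochondrial chaperonin and its partner and had 11.3 and 5.41, and Mrps12/Sars2 joins a ribosomal protein and the mitochondrial seryl-tRNA synthetase and had 10.3 and 6.88. The strongest mitochondrial ribosomal member was Mrpl41/Pnpla7 with 20.5 and 24.3. Rps28/Ndufa7 joins the cytosolic ribosome and complex I across 10 bp and had 12.6 and 10.1.

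Splicing factor members had medians of 12.2 and 11.6 over 17 regions. Srsf2/Mfsd11 had 87.1 and 16.3 and Cbx5/Hnrnpa1 17.8 and 21.8. At 36 single-gene promoters of splicing factors the medians were 13.5 and 7.48. Cytosolic ribosomal members, though few, had medians of 15.7 and 8.72 over 14 regions, led by Rps27/Rab13 with 18.5 and 29.1. These regions hold 12 genes of the list, because some pairs have several regions. At 67 single-gene promoters of the same list the medians were 13.3 and 7.22. DNA repair members were weaker, at 6.62 and 3.26 over 11 regions, against 11.4 and 4.80 at 19 single-gene promoters, and Xrcc3/Zfyve21 led them with 12.6 and 6.35.

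Of other metabolic genes, Styxl1/Mdh2, with mitochondrial malate dehydrogenase, had 36.2 and 11.9, and Dcaf6/Mpc2, with a subunit of the mitochondrial pyruvate carrier, had 15.9 and 21.4. Sqstm1/Mgat4b, with the autophagy receptor p62, had 28.6 and 17.4. Hist2h2ac/Hist2h2be, a pair of histone genes, had 19.4 and 23.8.

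Gene bodies did not show which partner held the promoter summit. Both bodies could be read, from 1000 bp past the TSS, at 526 members. RNAP2 peaks covered a median of 1.16% of the more covered body and 0% of the less covered one in replicate 1, and 4.12% and 1.03% in replicate 2. The same partner was the more covered in both libraries at 217 members and the opposite one at 179, which is 54.8% of those that were unequal in both. Where both the body and the summit named a partner in both libraries, they named the same partner at 57 of 116 members (49.1%). The largest agreeing difference was at the weaker region of Sphk2/Rpl18, with RNAP2 values of 3.21 and 3.05. There 70.1% and 54.3% of the Sphk2 body was covered, against 11.6% and 11.2% of Rpl18. That Rpl18 body starts from an upstream TSS and holds the stronger region of the pair (chr7:45717884-45718404, 17.7 and 12.4). At the stronger region 51.1% and 39.4% of the Sphk2 body was covered, and the Rpl18 body was too short to read. Next came Brd2/H2-DMa, where 29.5% and 26.7% of the body of Brd2, a bromodomain protein, was covered, against 0% and 2.43% of H2-DMa. Peaks of other genes inside a body were not removed.

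The members were rich in CpG. From 150 bases before to 150 after the region midpoint, the median observed over expected CpG was 0.879, against 0.862 at single-gene promoters, and 93.7% against 86.0% were CpG-rich. Median GC content was lower, at 65.1% against 67.1%. The 10 motifs were searched as plain letters on both strands in the same window, and none of them contains another. The ETS sequence CCGGAAG was in 166 members (27.4%), against 18.1% of single-gene promoters, 19.9% of the CpG-rich ones and 11.6% of all RNAP2 regions. The YY1 sequence GATGGCGG was in 61 (10.1%), against 6.23%, 7.004% and 3.88%. The NF-Y sequence GCCAAT was in 20.5%, against 16.2% of single-gene promoters and 16.5% of the CpG-rich ones. The NRF1 sequence CGCATGCG was in 5.28%, against 3.80% and 4.35%, and the CRE sequence TGACGTCA in 4.13%, against 2.97% and 3.30%. The GC box GGGCGGG was in 49.7% against 50.9%, the E-box CACGTG in 9.90% against 9.71%, the nuclear receptor sequence AGGTCA in 11.2% against 10.3%, the muscle E-box CAGCTG in 14.4% against 16.1%, and the TATA box TATAAA in 4.29% against 4.66%. In 300-base RefSeq promoters of GRCm38, which reach from 250 bases before to 50 after each gene's start, 11.9% held the ETS sequence, 2.36% the YY1 sequence and 12.1% the TATA box. These shares are descriptions of sequence, and no binding of these factors was measured. Of the 28 members with REV-ERBα in both lists, 13 held the GC box (46.4%, against 46.7% of single-gene promoters with REV-ERBα in both lists). The E-box, the NRF1, ETS and YY1 sequences were each in 4 members (14.3%), against 11.1%, 1.23%, 9.02% and 3.69%. AGGTCA was in 2 (7.14%), against 14.8%, and counts this small were not tested.

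At the edges of the rule, Arfrp1/Zgpat, Dcun1d3/Lyrm1 and Bag4/Lsm1 had TSSs 1 bp apart, and their RNAP2 values ran from 4.33 to 8.49 in replicate 1 and from 1.98 to 5.52 in replicate 2. The longest distance, 1521 bp, was at Trpm4/Hrc, with a calcium-activated cation channel and a calcium-binding protein of the sarcoplasmic reticulum. It had 16.0 and 6.97 over the widest member, 2645 bp, and its summits lay 21 and 42 bp inside Hrc. The CpG ratio there was only 0.095. The 3 members just inside the limit, Urod/Hectd3, Abca17/Abca3 and Haghl/Ccdc78, had a TSS 983, 986 and 995 bp from the midpoint and values of 2.85 to 4.42 in replicate 1 and 1.48 to 5.62 in replicate 2. The 3 regions just outside had a TSS 1008, 1010 and 1013 bp away and values of 6.55 to 10.5 and 2.57 to 5.52.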

How the data were processed

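ChIP-seq peak lists of 6 libraries were used, with 2 each for RNAP2, BMAL1 and REV-ERBα. The authors aligned reads to mm10, discarded duplicates and reads of several places, equalised the depth of replicates and called peaks per library with MACS2 against input at a p-value of 0.05. The submitters' processing notes name BWA 7.12 and MACS2 2.1.1. The deposited −log10 p and −log10 q belong to each summit, and the deposited fold enrichment is a ratio of signal to the local background. The deposited score, 10 times the −log10 p as a whole number, was not used. The peak lists hold no counts per peak, and the input library was not used here.

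RNAP2 peaks of the replicates overlapping by at least 1 bp were merged, and regions with both were classed with GENCODE M21 TSSs of protein-coding transcripts. Of several pairs, that with principal transcripts and then the shortest distance was taken. A REV-ERBα or BMAL1 peak counted when it overlapped the region by 1 bp. Classes were compared within each library, with an exact sign-flip permutation test over the 2 libraries. Members named were the 10 strongest in RNAP2, the 8 strongest in REV-ERBα, those with clock, sarcomere or study-named genes, those at the extremes of distance, the limit and body cover, and leading members of each list. The BMAL1 part of this rule named no member. The printed stretches were chosen after the values were seen. Some named members and a marker are not reported here. The members and lists were chosen with earlier results of these data known. In simulated lists, peaks were planted near the middle of pairs already classed as divergent. Of these, 200 of 200 were recovered, which checks the code only, because the design fixed that outcome. A planted shift of 2 in −log10 p came out as 2.09 and 1.92. With no shift planted, the differences were -0.253 and 0.145. Alternatives changed distances, TSSs, thresholds and replicates. Python 3.11.15, pandas, scipy and pysam were used.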

Additional observations from a re-analysis of the deposited data

How the results depend on the processing

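No paired analysis was possible because the replicate numbers pair no groups of samples that were compared. Promoter classes were compared within each library, and the sign-flip test uses those within-library differences. The occupancy difference between divergent and lone genes kept its direction under all 12 alternatives, from 13.8 percentage points against CpG-rich lone genes to 42.6 points with RNAP2 replicate 1 alone and 27.9 points with replicate 2 alone. The lower share with a BMAL1 peak kept its direction under all 17 alternatives, from -2.74 to -0.834 points. The higher share of members with REV-ERBα of at least 10 in both lists, added after seeing the data, kept its direction in 17 of 17, from 0.985 to 1.78 points. The number of members moved to 280 with a −log10 q of at least 1.3, and to between 678 and 1006 when 1 RNAP2 library was left out.

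The mean difference in RNAP2 −log10 p (main value -0.102) reversed to 0.045 with a distance of 2000 bp, to 0.0102 with the outermost gene ends and to between 1.18 and 1.33 without 1 RNAP2 library. The difference in fold enrichment (0.0188) reversed to -0.11 with a −log10 p of at least 3, -0.231 with a −log10 q of at least 1.3, -0.112 with lists of equal length and -0.142 against CpG-rich single-gene promoters, and lay between 0.416 and 0.441 without 1 library. The difference in width (30.0 bp) reversed to -1.5 bp with a −log10 q of at least 1.3, and was 51 to 67.5 bp without 1 library. The difference in the REV-ERBα share (-1.41 points) reversed to 0.129 with a −log10 p of at least 3, and ran from -1.85 to 0.837 when 1 library of RNAP2 or REV-ERBα was left out. The difference in CpG ratio (0.0173) reversed to -0.0165 against CpG-rich single-gene promoters, a class defined by that ratio. The share of summits between the TSSs (19.7%) moved to 16.4% with the outermost gene ends. The cause of these changes was not tested. Peak lists without read counts limit every value to what passed the caller's threshold.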

Other observations

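Among the members, 54 (8.91%) had a partner known only by a clone or predicted-gene name. At 73 members each partner had a single annotated TSS within the limit, and the median number of annotated TSSs of the pair was 4. The 154 members with overlapping TSSs had a median −log10 p of 7.72 and 4.72, and a median distance between the chosen TSSs of 103 bp, against 149.5 bp for the 452 members in strict divergent order. REV-ERBα peaks in both lists were at 22 of the 452 (4.87%).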
